A study of Mus musculus with 7 samples.

Results

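Melanocyte lineage factors and receptors are represented here by 9 genes, Mitf, Sox10, Pax3, Tfap2a, Sox9, Zeb2, Snai2, Kit and Mc1r, out of 49585 genes listed for each library. They were picked by symbol, with the difference between the groups already known, so that difference is described below for them and carries no test. The rule has no threshold on any value, and all 9 genes passed the filter on low counts. Libraries came from MS-1 cells, a mouse endothelial line of pancreatic islet origin grown in DMEM. There were 3 control libraries, labelled wild type, and 4 libraries labelled LPL overexpression, in which lipoprotein lipase, an enzyme that hydrolyses triglyceride in lipoproteins, was raised. The labels give neither the species nor the promoter or delivery of the introduced LPL, nor whether the line is a clone. No vector-only library was analysed here, and age and treatment do not apply beyond the medium. Replicates are not said to come from separate cultures, so the spread and p-values given here can be technical. Lpl itself had 1 to 6 counts in each control and 10867 to 12753 counts in each LPL overexpression library. Library depth was between 26514501 and 28104402 counts in the controls and between 24328418 and 29210847 in the others.

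Melanocytes arise from neural crest cells, and a small network of transcription factors sets their fate. PAX3 and SOX10 bind the melanocyte promoter of Mitf, whose product, a basic helix-loop-helix leucine zipper factor, drives the genes of pigment synthesis and supports survival of the lineage. KIT, a receptor tyrosine kinase for stem cell factor, is needed for melanoblast migration and survival, and MC1R, the receptor of melanocortins, raises cAMP, through which CREB acts on the same Mitf promoter. Several of these genes also have roles elsewhere: Kit and Mitf in mast cells, Snai2 and Zeb2 in cells that lose epithelial character.

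The sequences below are shown because 2 of the genes, Mitf and Mc1r, have a promoter of known melanocyte use. Both were among the genes higher in the LPL overexpression libraries, and the upstream Mitf start is given for comparison. They are the 250 bases before a start site, on the plus strand of RefSeq's GRCm38.p6 (the assembly behind mm10). Capitals mark exact matches, on either strand, to any of 7 motifs: CATGTG, the E-box form bound by MITF; CACGTG, the palindromic E-box; TGACGTCA, the cAMP response element; ACAAAG and ACAATG, forms of the SOX motif; CTTTGAT, a LEF/TCF motif; and CAGGTG, the E-box form bound by SNAI2 and ZEB2. None of these motifs overlapped another in the windows of the lineage genes.
Mitf, melanocyte start, chr6:97991533-97991782: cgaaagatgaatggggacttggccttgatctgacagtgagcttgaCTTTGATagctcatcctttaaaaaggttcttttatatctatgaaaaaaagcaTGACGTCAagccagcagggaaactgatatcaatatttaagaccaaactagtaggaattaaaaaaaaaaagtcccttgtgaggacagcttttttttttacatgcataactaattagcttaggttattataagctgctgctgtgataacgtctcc
Mitf, upstream start, chr6:97806808-97807057: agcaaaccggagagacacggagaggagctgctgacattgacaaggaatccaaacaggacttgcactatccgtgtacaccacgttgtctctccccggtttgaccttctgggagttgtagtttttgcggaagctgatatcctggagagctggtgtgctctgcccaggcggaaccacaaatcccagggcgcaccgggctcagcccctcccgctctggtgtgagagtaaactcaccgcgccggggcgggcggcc
Mc1r, chr8:123406832-123407081: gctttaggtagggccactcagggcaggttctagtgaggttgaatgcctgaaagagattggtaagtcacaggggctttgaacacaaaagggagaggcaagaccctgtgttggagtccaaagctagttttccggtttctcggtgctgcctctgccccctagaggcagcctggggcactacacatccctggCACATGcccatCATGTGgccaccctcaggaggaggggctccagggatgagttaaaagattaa

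The melanocyte start of Mitf, at 97991783, lies in intron 2 of the protein-coding transcript Mitf-202 (10 exons) in the GENCODE annotation. Its window held the cAMP response element from 153 to 146 bases upstream and the LEF/TCF motif from 205 to 199 bases upstream. Of 32851 windows of the same length in the RefSeq table, 1.55% held the first and 3.21% the second. The window of the upstream Mitf start, at 97807058, matched none of the 7 motifs. The Mc1r window held CATGTG on the same strand from 51 to 46 bases upstream and on the opposite strand from 62 to 57 bases upstream, a motif found in 12.3% of all windows. The GC content was 36.0% at the melanocyte start of Mitf and 59.6% at the upstream start. Windows were listed for 5 of the 9 genes (Mitf, Tfap2a, Zeb2, Kit and Mc1r), 12 windows in all. Besides those printed, 1 Zeb2 window matched ACAAAG (16.5% of all windows) and the third Mitf window matched CAGGTG (17.2%). A match describes letters only. Reads were counted per gene, so which Mitf start produced them was not measured.

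Mitf was expressed at a low level in the controls and at a much higher level in every LPL overexpression library. The gene lies on chromosome 6 (97807052 to 98021349, mm10, plus strand) and is annotated as protein coding with 8 transcripts. Its counts were 61, 57 and 76 in controls 1 to 3, and 1101, 1289, 1149 and 1215 in LPL overexpression libraries 1 to 4. All 4 lay far above the controls, and they resembled each other closely. The level was 1.27 ± 0.230 TPM (a level scaled for gene length and library size; SD, n = 3) in the controls and 23.8 ± 0.540 TPM (SD, n = 4) with LPL overexpression. The log2 fold change from edgeR was 4.20 (SE 0.07), an 18.4-fold difference. The coefficient of variation over the 4 libraries was 2.02%, against 2.91% from counting error alone.

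Sox10, the neural crest factor that acts upstream of Mitf, had no sense read in any control. It lies on chromosome 15 (79154913 to 79164490, minus strand). Counts were 0, 0 and 0 in the controls and 640, 667, 588 and 684 in the LPL overexpression libraries, or 29.6 ± 1.89 TPM (SD, n = 4). Read against a floor of 3 counts over the 3 controls (0.0372 CPM, a level scaled for library size only), the level was at least 647-fold higher. This floor covers counting error only.

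Pax3, a paired-box factor of early neural crest and myogenic cells on chromosome 1 (78101267 to 78197134, minus strand), was also nearly silent in the controls. Its counts were 2, 0 and 0 in the controls and 275, 319, 295 and 259 in the LPL overexpression libraries. Control 1 held both control reads. The ratio of pooled CPM was 432, with a 95% counting interval (Clopper-Pearson) from 119 to 3573. The level with LPL overexpression was 5.78 ± 0.550 TPM (SD, n = 4), lowest in library 4 at 5.02 TPM.

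Tfap2a, the AP-2 alpha factor of neural crest and epidermis on chromosome 13 (40715675 to 40733823, minus strand), had counts of 1, 1 and 0 in the controls. In the LPL overexpression libraries it had 215, 208, 163 and 217. Those 4 values lay well apart from the controls, and library 3 was the lowest. The ratio was 302 (95% counting interval 83.4 to 2500.3) and the level 7.70 ± 1.01 TPM (SD, n = 4). An antisense gene that shares exon bases with it, Gm26688, had 0 counts over the controls and 21 over the LPL overexpression libraries.

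Sox9, a relative of Sox10 that acts in cartilage and in many epithelial progenitors, stayed close to the limit of detection. On chromosome 11 (112782224 to 112787760, plus strand), it had 0 counts in each control and 9, 14, 15 and 8 counts in the LPL overexpression libraries. No control reached these values, but the level was only 0.346 ± 0.107 TPM (SD, n = 4), at least 11.5-fold above the floor. Within the same libraries Sox10 stood between 59.7 and 130 times as high per length as Sox9. Sox10 accounted for 98.2% to 99.2% of the summed TPM of Sox8, Sox9 and Sox10, the SOXE subgroup.

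**Figure D1:**
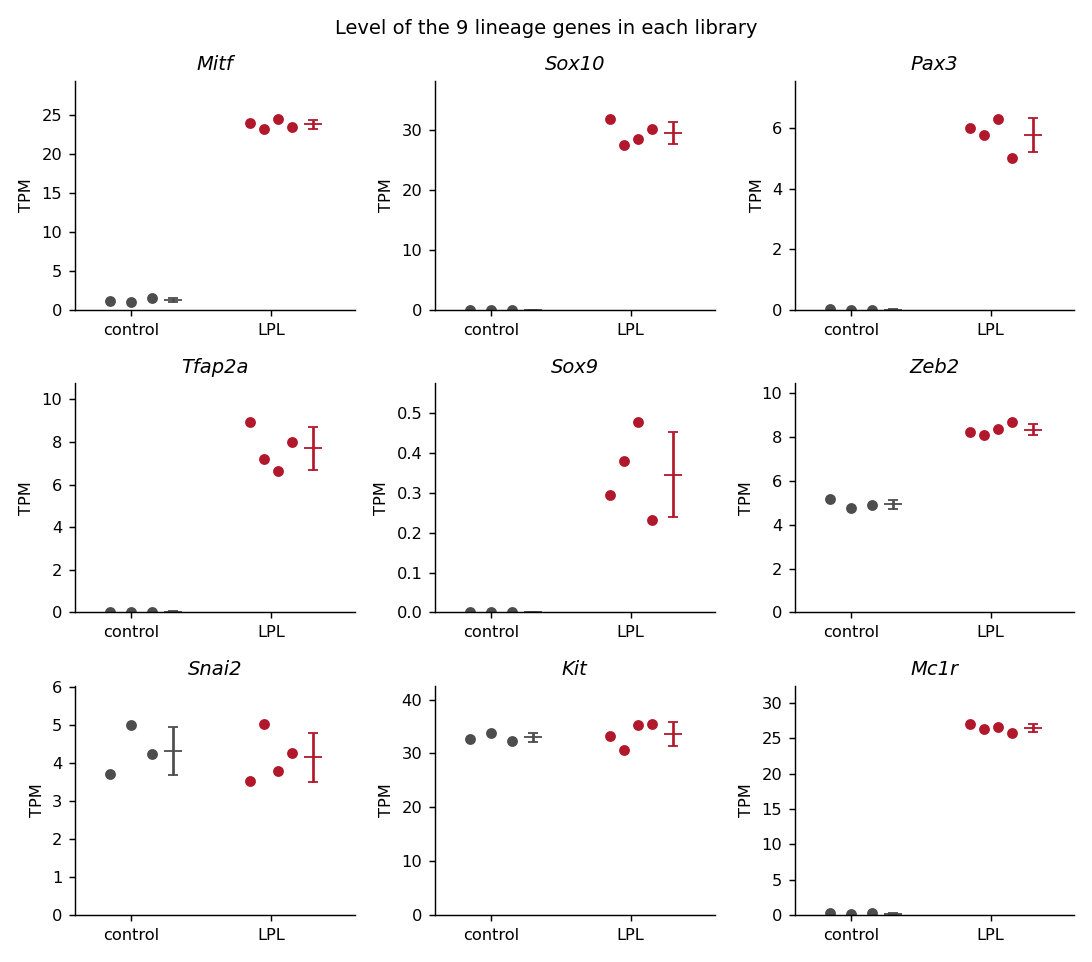
Level of each lineage gene in TPM (linear axes that differ between panels) in the 3 control (grey) and 4 LPL overexpression (red, labelled LPL) libraries; points are libraries in replicate order, and the bar beside them is the mean with its SD. Snai2 and Kit overlap between the groups, Zeb2 goes from about 4.93 to 8.34 TPM, and the other 6 genes lie near 0 in the controls.

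The repressors Zeb2 and Snai2 differed from each other. Zeb2, a zinc-finger homeobox repressor of epithelial genes that also takes part in melanocyte differentiation, lies on chromosome 2 (44983632 to 45117395, minus strand). It had 843, 805 and 783 counts in the controls and 1213, 1436, 1261 and 1447 in the LPL overexpression libraries. After scaling, each of these 4 lay above every control, at 8.34 ± 0.267 TPM (SD, n = 4) against 4.93 ± 0.198 TPM (SD, n = 3). The fitted difference was 1.66-fold (log2 fold change 0.73, SE 0.04). Zeb2os, an antisense gene that shares 653 exon bases with Zeb2, had 14 counts over the controls and 45 over the others. Snai2, which encodes the Slug repressor active in neural crest migration, lies on chromosome 16 (14705852 to 14709395, plus strand). It had 62, 86 and 69 counts in the controls and 53, 91, 58 and 72 in the other group. The ranges overlapped (2.69 ± 0.412 and 2.53 ± 0.411 CPM), and its log2 fold change was -0.08 (SE 0.14). In both groups library 2 was the highest for Snai2.

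The receptors differed: Mc1r was higher with LPL overexpression, while Kit overlapped between the groups. Kit, on chromosome 5 (75574916 to 75656722, plus strand), was already abundant in the controls, with 2393, 2557 and 2317 counts. The LPL overexpression libraries held 2186, 2439, 2377 and 2636. Levels were 33.0 ± 0.753 TPM (SD, n = 3) and 33.6 ± 2.23 TPM (SD, n = 4), the groups overlapped, and the log2 fold change was 0.00 (SE 0.04). Among the LPL overexpression libraries Kit varied more than counting error allows for, with a coefficient of variation of 6.30% against 2.04% from counting, lowest in library 2 at 82.6 CPM and highest in library 4 at 94.8 CPM. Mc1r, a single-transcript gene on chromosome 8 (123407107 to 123410744, plus strand), had 6, 4 and 6 counts in the controls. Its counts were 727, 854, 734 and 781 in the LPL overexpression libraries, which differed little among themselves after scaling (28.9 ± 0.598 CPM). The ratio of pooled CPM was 146 (95% counting interval 89.6 to 255).

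In the fit over all genes, 7 of the 9 genes were called higher and 0 lower, beside 43.2% of all 13639 genes tested that were called in either direction and 21.9% that were called higher (2988 genes, with 2900 lower). Without any one LPL overexpression library the count was 6, since Sox9 then failed the low-count filter. With limma on TPM values the counts over all genes were 3304 higher and 2082 lower. The groups did not overlap for 7 of the 9 genes, beside 44.6% of all genes. Sox10, Pax3, Tfap2a, Sox9 and Mc1r passed the low-count filter only through the group in which they are high, and nothing is read from these counts. In bulk RNA, a change in the number of cells that express a gene cannot be told apart from a change in RNA per cell.

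Few reads came from the opposite strand. Over the LPL overexpression libraries, antisense reads made up 0.0421% of the reads of Mitf, 0.271% of Sox10, 0.0870% of Pax3, 0.742% of Tfap2a and 0.129% of Mc1r. Zeb2 had the highest share, 1.11%, and Sox9 and Snai2 had 0 antisense reads. In the controls Sox10 had 1 antisense read beside its 0 sense reads.

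The order of levels differed between the groups. In the controls Kit led by far, at 33.0 TPM, and made up 74.9% to 76.0% of the summed TPM of the 9 genes. Zeb2 (4.93 ± 0.198 TPM) and Snai2 (4.31 ± 0.641 TPM) came next with overlapping ranges, followed by Mitf at 1.27 TPM and Mc1r at 0.179 ± 0.0425 TPM. Tfap2a (0.0246 TPM) and Pax3 (0.0131 TPM) overlapped, and each had at least 1 control at 0. In the LPL overexpression libraries Kit made up 22.8% to 25.1% of the sum. Sox10 followed it with an overlapping range, then came Mc1r (26.4 ± 0.547 TPM) and Mitf, apart from each other and from their neighbours. Zeb2 (8.34 ± 0.267 TPM) and Tfap2a overlapped, as did Pax3 and Snai2 (4.14 ± 0.658 TPM), and Sox9 was last. The 9 genes summed to between 43.0 and 44.8 TPM in the controls and between 134 and 143 TPM with LPL overexpression.

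**Figure D2:**
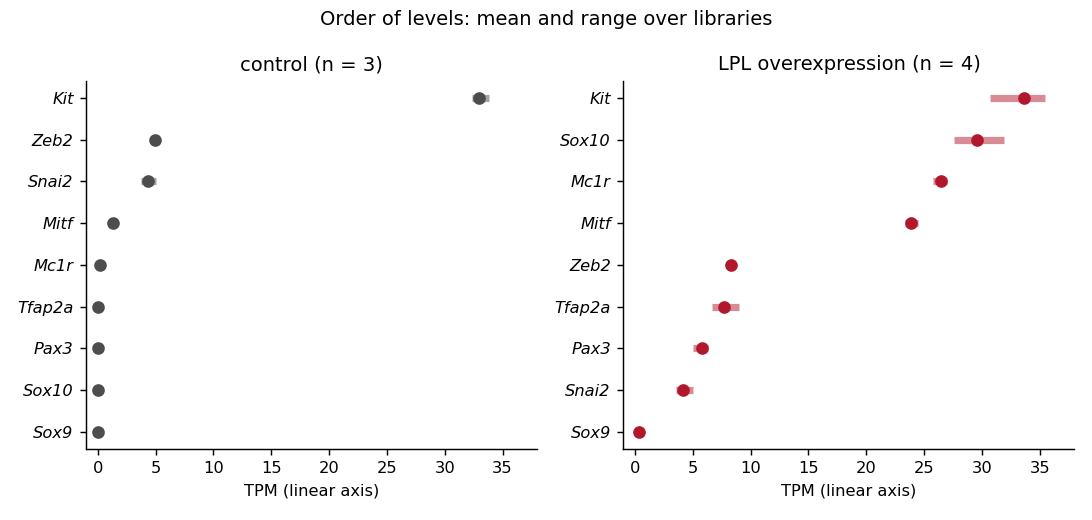
The 9 genes ordered by mean TPM in each group (points, linear axis), with bars for the range over the 3 control and 4 LPL overexpression libraries. Kit is first in both groups at about 33 TPM, and Sox10, Mc1r and Mitf join it above 20 TPM only in the right panel.

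Within the LPL overexpression libraries the factors kept similar proportions to Mitf. Mc1r stood at 1.12, 1.13, 1.09 and 1.09 times the TPM of Mitf in libraries 1 to 4, a range narrower than that of the other genes. Sox10 stood at 1.33, 1.18, 1.17 and 1.29 times, Tfap2a at 0.373, 0.308, 0.271 and 0.341 times, and Pax3 at 0.250, 0.248, 0.257 and 0.213 times. Libraries 1 and 4 had the higher proportions of Sox10 and Tfap2a, and library 4 the lowest of Pax3. In the controls the proportion of Mc1r to Mitf was 0.168, 0.120 and 0.134. The coefficient of variation relative to counting error was 1.85 for Tfap2a, 1.61 for Pax3, 1.57 for Sox10, 1.05 for Sox9 and 0.574 for Mc1r over the 4 libraries.

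**Figure D3:**
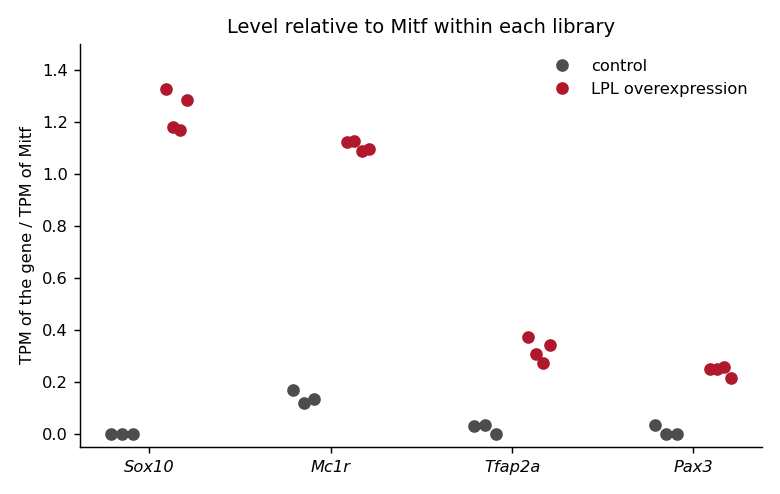
TPM of Sox10, Mc1r, Tfap2a and Pax3 divided by the TPM of Mitf in the same library (linear axis; grey, 3 controls; red, 4 LPL overexpression libraries). The red points of Mc1r lie between 1.09 and 1.13 and those of Sox10 between 1.17 and 1.33, while all grey points lie at or below 0.168.

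Relatives of these genes from the same families were compared with the fit over all genes, using edgeR's quasi-likelihood test with Benjamini-Hochberg adjustment. Of 22 listed relatives 9 could be tested, 4 rose, 1 fell and 4 did not pass, beside 21.9% higher and 21.3% lower over all genes. The median log2 fold change was 0.19 against 0.00 over all genes. Sox5, among the rises, passed the low-count filter only through the LPL overexpression libraries. Nothing is therefore read from the count of rises or from this median. The MiT/TFE family, to which MITF belongs, was led by Tfec in the controls. Tfec, a factor described mostly in macrophages, rose from 22.8 ± 0.174 to 26.6 ± 0.598 TPM (log2 fold change 0.19, adjusted p = 5.71e-05). Tfeb, a regulator of lysosomal genes, rose from 6.32 ± 0.282 to 8.18 ± 0.384 TPM (0.34, adjusted p = 2.17e-05). Tfe3 stood at 15.1 ± 0.634 and 15.9 ± 0.885 TPM and did not pass (adjusted p = 0.405). Mitf contributed 2.40% to 3.39% of the family's summed TPM in the controls and 31.7% to 32.3% with LPL overexpression.

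Among SOX factors, Sox5 and Sox6, SOXD proteins that modulate SOX10 in melanocytes, rose. Sox5 had 0 control counts and 3.49 ± 0.211 CPM (SD, n = 4), at least 93.9-fold above the floor. Sox6 rose from 0.521 ± 0.0799 to 5.38 ± 0.586 CPM (log2 fold change 3.36, SE 0.17, adjusted p = 1.11e-22 in edgeR). Zeb1, the paralog of Zeb2, fell from 69.3 ± 2.38 to 59.6 ± 0.732 CPM (log2 fold change -0.22, adjusted p = 1.16e-06 in edgeR), below every control in 4 of 4 libraries. Zeb2 thus made up 17.6% to 18.6% of the summed TPM of both ZEB genes in the controls and 29.0% to 30.7% in the other group, while that sum was between 26.4 and 28.5 TPM in the controls and between 27.5 and 28.4 TPM in the LPL overexpression libraries. Snai1 was at 28.6 ± 0.610 and 26.5 ± 2.23 TPM and did not pass (adjusted p = 0.0780), except without LPL overexpression replicate 1 (adjusted p = 0.0160). Pdgfra and Pdgfrb, receptor kinases of the class of KIT, did not pass (log2 fold changes 0.14 and 0.23, SE 0.11 and 0.16). The melanocortin receptor genes Mc2r, Mc3r, Mc4r and Mc5r had 0 counts in all 7 libraries, as had Tfap2c and Tfap2d, and Tfap2b had 1 count.

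**Figure D4:**
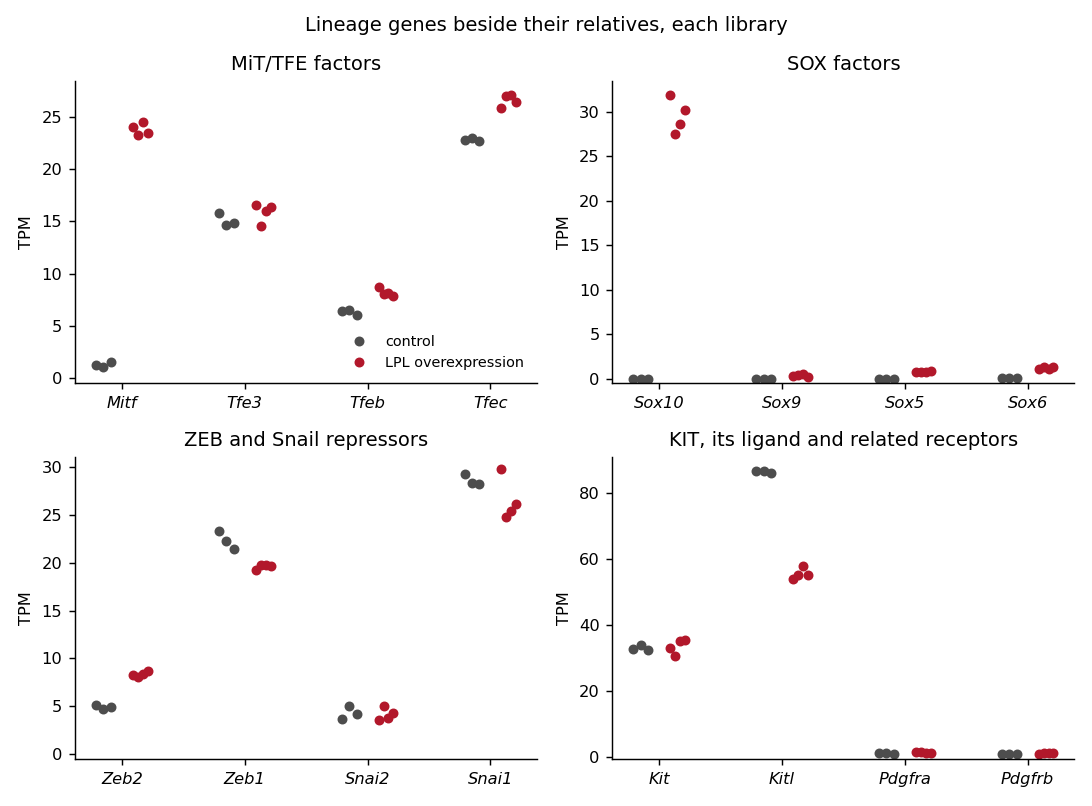
TPM of lineage genes and their relatives in each library (linear axes; grey, 3 controls; red, 4 LPL overexpression libraries). Mitf joins the level of Tfec, Sox10 stands far above the other SOX genes shown, Zeb2 and Zeb1 differ in opposite directions, and Kitl is lower with LPL overexpression while Kit overlaps.

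Outside the receptor, more KIT pathway genes fell than rose, and the ligand gene had the most negative log2 fold change of them. The list of KIT ligand and signalling held 29 genes, all tested. Among them 14 fell, 5 rose and 10 did not pass, and the median log2 fold change was -0.05. Over all genes 21.3% fell and 21.9% rose, so the rises are not above the background. Kitl, which encodes stem cell factor, the ligand of KIT, fell from 153 ± 0.985 to 96.2 ± 2.87 CPM (log2 fold change -0.66, SE 0.03, adjusted p = 1.44e-26 in edgeR). Each LPL overexpression library, at 93.4, 96.2, 100.2 and 95.2 CPM, lay below the controls at 152, 153 and 153 CPM. Kitl was 2.56 to 2.65 times as high per length as Kit in the controls and 1.55 to 1.80 times in the other libraries. Sh2b3, an adaptor that restrains signalling from KIT and cytokine receptors, fell from 241 ± 8.27 to 173 ± 5.37 CPM, and Lyn, a SRC-family kinase, from 86.2 ± 0.679 to 64.8 ± 2.47 CPM. Ptpn11, the SHP2 phosphatase gene, stood at 278 ± 3.63 and 274 ± 0.796 CPM and did not pass (adjusted p = 0.546 in edgeR). The 5 rises numbered only 2 without control replicate 1 or LPL overexpression replicate 1 and with DESeq2, and the 14 falls were 9 on TPM values. With upper-quartile factors in edgeR 7 rose and 10 fell. Endothelial markers moved with these falls: of 19 tested, 14 fell and 2 rose, and their sum went from 9706 to 9879 CPM across the controls and from 8116 to 8333 CPM across the other libraries. Its part in the lower KIT pathway genes was not tested.

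**Figure D5:**
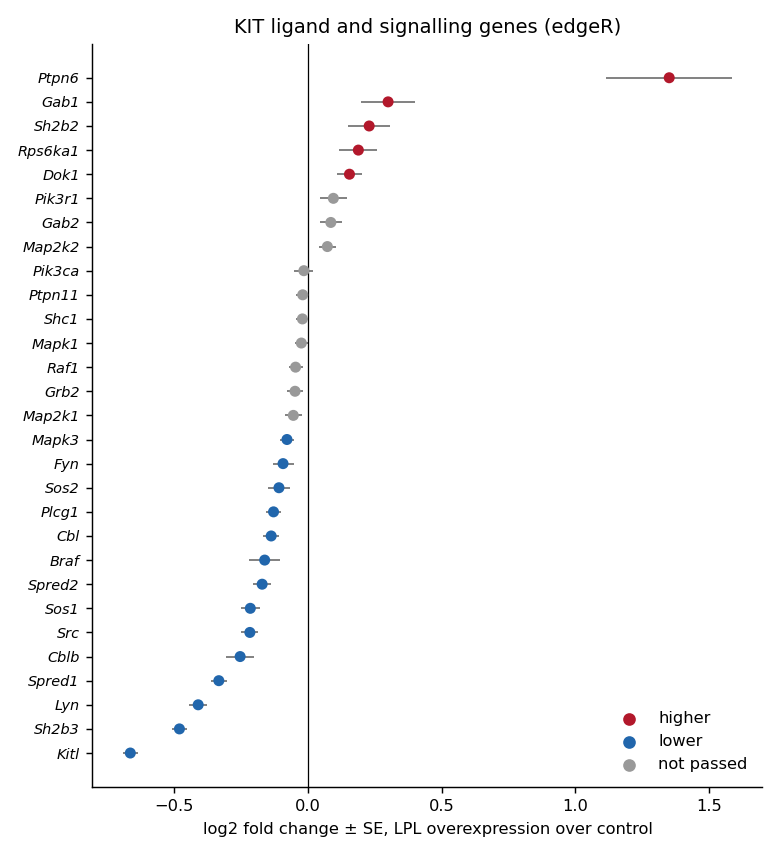
Log2 fold change of 29 genes of KIT ligand and signalling, LPL overexpression over control, with the standard error from edgeR as bars (7 libraries). Blue points passed as lower, red as higher and grey did not pass; Kitl is lowest at -0.66, and Ptpn6, with few reads, is highest at 1.35.

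Of 36 genes for melanocortin ligands and cAMP signalling 26 were tested, and 6 rose, 7 fell and 13 did not pass (median log2 fold change -0.02). These counts are near the background of 21.9% higher and 21.3% lower over all genes and are no result about the list. The ligand genes were near or at 0: Pomc, the precursor of melanocortins, had 6 counts over the controls and 10 over the LPL overexpression libraries, and Asip, the agouti antagonist gene listed under its older symbol a, had 0 in both. The rises included adenylyl cyclase genes with few control reads. Adcy7 rose from 0.262 ± 0.0725 to 7.36 ± 0.536 CPM (log2 fold change 4.80, SE 0.18, adjusted p = 2.40e-28 in edgeR). With reads of both strands counted the log2 fold change of Adcy7 was 2.18, its antisense reads numbering 132 over the controls and 129 over the other libraries. Adcy3 had 2 sense counts over the controls and 126 over the LPL overexpression libraries, a ratio of 47.4 (95% counting interval 12.9 to 396). Most of its reads were antisense, 288 and 471, and with both strands counted the log2 fold change of Adcy3 was 0.70, against 5.33 on sense reads and 7.98 without control replicate 2. The sizes of both rises thus hold for sense reads only. Per length they stayed far below Adcy4, the most abundant of the tested cyclases, at 266 ± 1.23 TPM in the controls and 230 ± 5.57 TPM with LPL overexpression, against 3.64 ± 0.271 TPM for Adcy7. Prkar2a, a regulatory subunit of protein kinase A, rose from 92.7 ± 1.73 to 155 ± 4.72 CPM, whereas Prkar1a stood at 395 ± 7.92 and 399 ± 3.71 CPM (adjusted p = 0.681 in edgeR). The falls numbered 4 on TPM values.

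Other regulators of neural crest and melanoblasts were partly present. Of 25 genes 14 were tested, and 9 rose, 3 fell and 2 did not pass (median log2 fold change 0.19). Over all genes 21.9% rose and 21.3% fell, so the falls are near the background. Among the rises, Erbb3 and Adamts20 passed the low-count filter only through the LPL overexpression libraries, so nothing is read from the count of rises. Erbb3, a neuregulin receptor, had 7 counts over the controls and 8.29 ± 0.782 CPM in the LPL overexpression libraries, a ratio of 95.1 (95% counting interval 46.0 to 237). Adamts20, a protease needed for melanoblast survival, had 0 sense counts in the controls and was at least 56.5-fold above the floor. It had 5 antisense counts over the controls and 7 over the other libraries, and its log2 fold change with both strands counted was 5.03. Tbx2, a T-box repressor, rose from 4.38 ± 0.250 to 13.0 ± 1.33 CPM, and Myc did not pass (91.4 ± 2.23 and 94.1 ± 1.10 CPM). Ednrb, Foxd3 and Twist1 had 0 counts in all 7 libraries. Ngfr had 1 count and Lef1 2 counts, all in the LPL overexpression libraries.

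Known targets of the factors were counted next, without pigment synthesis genes. Of 16 tested MITF targets (of 19), 9 rose, 4 fell and 3 did not pass, the median log2 fold change being 0.15. The background was again 21.9% higher and 21.3% lower, and the falls are near it. Trpm1, among the rises and also a pigment cell marker below, passed the low-count filter only through the LPL overexpression libraries. Nothing is therefore read from the count of rises. On TPM values the falls were 2. Gpnmb, a melanosome and lysosome glycoprotein gene, rose from 15.2 ± 0.377 to 242 ± 11.8 CPM. Met, the receptor of hepatocyte growth factor, rose from 94.7 ± 1.92 to 191 ± 3.01 CPM and Rab27a, a GTPase of melanosome transport, from 6.80 ± 0.398 to 21.6 ± 0.862 CPM, while Diaph1 did not pass (64.9 ± 0.641 and 61.5 ± 2.47 CPM), except with the replicate number as a block and without LPL overexpression replicate 4 (adjusted p = 0.0231 and 0.0342). Of 6 tested SOX10 targets of glia (of 15), 5 rose, 0 fell and 1, Cnp, did not pass. Those with 0 or few control counts, such as Cdh19 and S100b, passed the low-count filter only through the LPL overexpression libraries. Nothing is therefore read from this count. Cdh19, a cadherin of Schwann cell precursors, had 0 control counts and was at least 153-fold above the floor, and S100b had a ratio of 30.3 (95% counting interval 14.5 to 76.1). The log2 fold change of S100b was 4.85, or 3.81 with both strands counted. Of 20 epithelial genes that SNAI2 and ZEB2 repress, 4 were tested. Itgb4 fell from 5.18 ± 0.169 to 3.17 ± 0.262 CPM and Krt18 from 31.5 ± 1.27 to 26.5 ± 0.788 CPM, while Krt19 did not pass. Ocln rose, but not when tested by DESeq2 (adjusted p = 0.0844) or without control replicate 1 (adjusted p = 0.0519 in edgeR). Cdh1 had 0 counts over the controls and 12 over the LPL overexpression libraries, and Epcam had 0 in both.

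Markers of pigment cells were present in each library in which the lineage factors were high. All 12 pigment cell markers were tested and rose, beside 21.9% of all genes called higher and 21.3% called lower. At least 6 of them, with 0 control counts, passed the low-count filter only through the LPL overexpression libraries. Nothing is therefore read from this count. The sum of the 12 was at most 1.59 CPM in any control and at least 1385 CPM in every library with LPL overexpression. Pmel, which encodes the fibril protein of melanosomes, went from 0.952 ± 0.141 to 337 ± 11.5 CPM. Tyrp1, an enzyme of melanin synthesis, and Mlana, a melanosome protein gene, had 0 control counts and reached 462 ± 4.84 and 103 ± 2.55 CPM. Endothelial markers were present in both groups. Pecam1, the gene of a junction protein of endothelial cells, fell from 2823 ± 14.9 to 2144 ± 36.7 CPM, although Sox17 had 0 counts in all 7 libraries and Cldn5 1 count. Of 10 markers of Schwann cells and glia 7 were tested and rose. The 10 summed to between 24.6 and 26.8 CPM against 2.69 to 3.55 CPM in the controls, with Foxd3 at 0 and Ngfr at 1 count. The glial list and these markers share Erbb3, Cdh19 and S100b among others. Those 3 genes passed the low-count filter only through the LPL overexpression libraries, so nothing is read from the count of rises. Among mast cell markers, Tpsb2 and Mcpt4 had 0 counts, Cpa3 had 9 and 6 counts over the groups, and of 2 tested mast cell markers Gata2, which endothelial cells also express, did not pass. The other, Hdc, rose in edgeR (adjusted p = 0.0440), but not when tested by DESeq2 (adjusted p = 0.210) or without any one control or LPL overexpression replicate 1 (adjusted p from 0.0524 to 0.197 in edgeR). Hdc also did not pass in edgeR without the low-count filter (adjusted p = 0.0666) or with limma on TPM values (adjusted p = 0.0785). For retinal pigment epithelium, Rdh5 alone was tested and did not pass, except without control replicate 2 (adjusted p = 0.0172). Otx2 and Rgr had 0 counts. The remaining lists held few tested markers, so their counts are no result beside 21.9% higher and 21.3% lower over all genes. Of 5 tested markers of fibroblasts and mural cells 3 rose, Cspg4 among them, and 0 fell. Cspg4 had 1 sense count over the controls, and its log2 fold change was 5.53, or 3.96 with both strands counted. Of 2 tested keratinocyte markers 0 rose and 1 fell, and of 2 of blood cells and osteoclasts 1 rose and 1 fell. The last fall, of Fcer1g, did not pass with DESeq2 (adjusted p = 0.201), with the replicate block (0.0524), or without control replicate 1 or 2 or LPL overexpression replicate 1 (adjusted p from 0.0508 to 0.195 in edgeR). Nor did Fcer1g pass in edgeR without the low-count filter (adjusted p = 0.0600). The part of any of these cell types in the levels of the lineage genes was not tested.

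The genes closest in pattern were found by the root mean square difference of mean-centred log2(CPM + 0.5) over the 7 libraries, among 10613 genes (10614 for Sox9). This is a description, and the libraries share their grouping. Nearest to Sox10 were Car14 (difference 0.07) and Tspan10 (0.12), and nearest to Mitf were Gpnmb (0.12) and Stox2 (0.13). Pax3 was nearest to Chsy3 and Cadm1 (0.07 and 0.12), Tfap2a to Stox2 and Gpnmb (0.09 and 0.10) and Mc1r to Car14 and Gpc1 (both 0.11). Car14, Tspan10, Chsy3, Cadm1 and Gpc1 had 0 counts in the controls, so their distance depends on the added 0.5. The added 0.5 also shapes every other pair in which a gene had few control counts. Nearness there is no likeness of fold change. Stox2, with 3 control counts, went from 0.0372 to 7.92 CPM and Gpnmb from 15.2 to 242 CPM. Mitf went from 2.41 to 44.4 CPM and Tfap2a from 0.0244 to 7.51 CPM. Zeb2 was nearest to Ifi27 and Eogt (0.03 and 0.04), and Ifi27 went from 34.7 ± 1.36 to 56.7 ± 2.05 CPM. Kit was nearest to Rbm45 and Taco1 (both 0.02), Snai2 to Zbtb3 and Nudt6 (0.07 and 0.08), and Sox9 to Tnik and Polr3g (0.08 and 0.10). Sox9 had 0 control counts, whereas Tnik went from 1.40 to 3.23 CPM and Polr3g from 8.49 to 15.3 CPM.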

How the data were processed

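RNA was measured in 7 libraries of MS-1 cells made with a TruSeq stranded total-RNA kit, per the labels' protocols. Reads were aligned with STAR to mm10, per the submitters' processing notes, and the file names name featureCounts. Their versions, the annotation release and the counting options were not found in these sources. The deposited counts per gene are whole numbers, given by the authors for both orientations and for each. Those in reverse orientation, 97.0% to 97.1% of oriented reads, were used. The deposited TPM values sum to 1000000 over all genes. The deposited FPKM values served only to check the order of levels. A second set of the authors' TPM columns, rescaled to a subset of genes and treated as a score, was not used.

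All genes were fitted with edgeR 4.0.16 (R 4.3.3): TMM, filterByExpr by group, robust quasi-likelihood F test, group as the only term, Benjamini-Hochberg over 13639 genes, threshold 0.05. Levels in CPM are TMM-scaled. Standard errors were obtained by dividing the size of the log2 fold change by √F. The step was tested on simulated counts. The genes changed there were well counted and differed less than the lineage genes that were nearly silent in the controls. The simulation therefore does not cover those lineage genes. Alternatives used limma 3.58.1 on log2(TPM + 0.5), DESeq2 1.42.0, other factors, no filter, both orientations, a replicate block and each library left out. Against 0 control counts, folds use a floor of 3 counts over the group. With few control counts the ratio has a Clopper-Pearson interval. Intervals and floors cover counting error only.

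The genes and lists were chosen with earlier results of these data known. Named besides the lineage genes were relatives with at least 10 counts in a library, the ligands, up to 3 called genes per list with the lowest adjusted p, 1 abundant gene that did not pass, and the 2 nearest genes in pattern with at least 2 CPM in either group. Genes given with 0 or few counts (such as Ednrb, Cdh1, Cpa3 and Otx2), Adcy4, Sox17, Cldn5, Trpm1, Ptpn6 in a caption and the antisense genes were named after their values were seen.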

Additional observations from a re-analysis of the deposited data

Results flagged for a closer look

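One value stood apart among the named genes. Rab27a was at 20.3 CPM in LPL overexpression replicate 2, while the other 3 LPL overexpression libraries lay between 22.0 and 22.2 CPM. The gap was 0.896 of the group's whole range, above Dixon's 95% critical value for 4 samples. Chance alone exceeds it in about 5% of groups, and 59 groups of 4 libraries were checked, 1 per named gene, so that a single value of this kind is no more than chance gives. All 4 values exceeded every control, and none of the 9 lineage genes had such a value.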

How the results depend on the processing

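Of the 9 lineage genes, 6 or 7 were called higher and 0 lower with each library left out, and 7 and 0 with the replicate block. The log2 fold change ranged from 3.79 to 4.36 for Mitf, 0.70 to 0.76 for Zeb2, -0.03 to 0.05 for Kit and -0.19 to 0.05 for Snai2. For genes with 0 or few control counts it moved with the pseudocount and the strand counted: on log2(TPM + 0.5) Sox10 was at 5.91, Pax3 at 3.61, Tfap2a at 3.96, Sox9 at 0.75 and Mc1r at 5.31. With both strands counted Sox10 was at 10.47 (12.34 on sense reads, with 1 antisense control read), Adcy7 at 2.18, Adcy3 at 0.70, Adamts20 at 5.03, S100b at 3.81, Cspg4 at 3.96 and Mlana at 12.57. Without control replicate 1, which held both control reads, Pax3 was at 11.17. On TPM values the falls were 9 in the KIT list, 4 in the MC1R list and 2 among MITF targets. With DESeq2, 2 genes of the KIT list rose. Of the epithelial list 3 rose without the low-count filter and 2 with DESeq2. With single libraries left out, the KIT list had 2 to 7 rises, the relatives 1 or 2 falls, the epithelial list 0 or 1 rise, and 0 to 2 lineage genes changed rank in the controls, 2 of them without control replicate 2. The cause of these changes was not tested. Same-numbered libraries did not deviate together (correlations from -0.03 to 0.01), and 0 of 3 LPL overexpression libraries correlated best with its own number. With the replicate block 5794 genes were called, 5474 of them also called without it.

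Limits: 3 and 4 libraries give standard errors of the spread between these libraries only. Depth limits Sox10, Sox9, Pax3 and Tfap2a in the controls, where each had 0 to 2 sense counts over the group.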
